A study of Mus musculus with 15 samples.

Results

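The genes described here were present at birth in RNA of laser-captured Purkinje cells (PCs). By the third postnatal week they were at a low level or not detected. They were chosen on CPM, the count of a gene per 1000000 counts on all genes of that sample: at least 10 CPM on average and above 5 CPM in every sample at postnatal day 0 (P0), and below 2 CPM in every sample at P21, which is called off here. Of 38561 genes with a row, 20928 had a count in any sample, 8465 met the conditions at P0 and 178 of these also met the condition at P21. The other 8287 genes that met the conditions at P0 serve as comparison genes below. Since P0 and P21 values chose the 178 genes, those values are given as a description, and every test compares P4, P8 and P14, which the choice did not read.

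RNA was sequenced from PCs that had been cut out by laser from male mice, labelled as strain C56/BL6 and given as C57/BL6 in the study's methods. The 15 samples are biological replicates, 3 each of P0, P4, P8, P14 and P21. No treatment or genetic change was applied in any group, and age is the variable compared. At P4 to P21, 1000 individual PC soma were collected per sample, whereas at P0 single cells were hard to isolate and clusters of PCs were captured, so that age and the manner of capture cannot be told apart at P0. Summed counts on genes ranged from 3409371 to 7814951 per sample, and 3 counts corresponded to 0.384 to 0.880 CPM.

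PCs are the large GABAergic output neurons of the cerebellar cortex. They have left the cell cycle and migrated before birth, and during the first postnatal weeks they arrange into a single layer, grow their dendrites and receive climbing and parallel fibre synapses. Around them, granule cell progenitors divide in the external granular layer until about the end of the second week, interneuron precursors divide in the white matter, and Bergmann glia divide and extend fibres past the PC soma. Genes of growing axons, of embryonic RNA control and of the cell cycle are well known to be expressed early and lost later in the brain.

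The captured material carried PC transcripts at all ages. The summed level of 6 PC markers (Car8, Pcp2, Ppp1r17, Itpr1, Calb1 and Pcp4) was 5046 to 6747 CPM at P0, 11351 to 17195 at P4, 18735 to 20864 at P8, 29298 to 33759 at P14 and 32880 to 39800 at P21. Transcripts of neighbouring cells were present too. The sum of 13 markers of Bergmann glia, astrocytes and radial glia was 5404 to 7522 CPM at P0, 8834 to 10752 at P8 and 2533 to 4086 at P21. Within it, Fabp7 went from 3151, 2283 and 3569 CPM at P0 to 158, 106 and 225 at P21. The sum of 11 markers of granule cell progenitors and young granule cells was 562.8 to 943.8 CPM at P0, 821.5 to 1202 at P8, 390.8 to 896 at P14 and 242.3 to 406.4 at P21. Atoh1, the defining transcription factor of granule cell progenitors, had no count in any of the 15 samples. No gene of the PC, granule cell, Bergmann glia, oligodendrocyte, pericyte, meninges, red blood cell or microglia lists was among the 178.

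The 178 genes together took a smaller share of the counts at each age. They took 0.790, 0.774 and 0.748% of all counts in the P0 samples, 0.362, 0.368 and 0.468% at P4, 0.197, 0.181 and 0.188% at P8, 0.0433, 0.0453 and 0.0398% at P14, and 0.00487, 0.00569 and 0.00829% at P21. The samples of neighbouring ages did not overlap at any step. The choice of high P0 and low P21 values favours this most directly at the first and last step. It did not read P4, P8 and P14, but a gene so chosen has to fall somewhere between, so lower values at the middle steps are favoured too. In RNA of captured tissue, fewer cells of a type and less RNA per cell cannot be told apart.

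**Figure D1:**
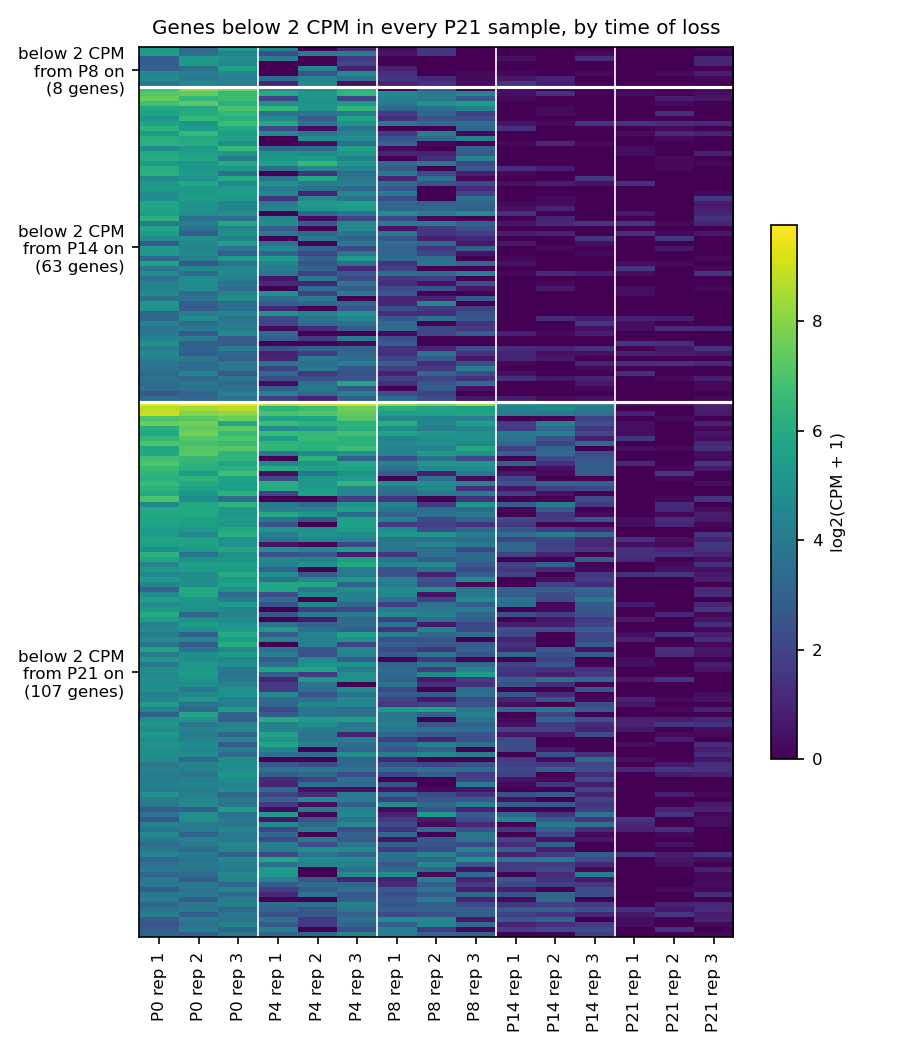
Level of the 178 genes (rows) in the 15 samples (columns) as log2(CPM + 1), grouped by the first time point from which every sample was below 2 CPM and ordered within a group by the P0 mean. The colour darkens from P0 to P21 in every group, with 63 genes below 2 CPM from P14 on and 107 from P21 on.

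By gene, the median level left was 48.4% of the P0 mean at P4, 22.5% at P8 and 4.45% at P14. Over the comparison genes it was 92.2, 87.7 and 75.7%. None of the 178 genes was below 2 CPM in every sample from P4 on, 8 were from P8 on, 63 from P14 on and 107 at P21 only. At P14, 24 of them had no count in any sample, and 39 had none at P21. The mean fell at each of the 4 steps for 89 of 178 genes (50%) and for 1079 of 8287 comparison genes (13.02%), a share that the choice of high P0 and low P21 values favours.

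The days between P4 and P14 were then tested on their own. The choice did not read these samples, but genes high at P0 and low at P21 make falls likelier than rises in this span too. From P4 to P14, 53 of the 178 genes fell and 0 rose in edgeR's quasi-likelihood test with Benjamini-Hochberg adjustment over 14392 genes, at an adjusted p threshold of 0.05. Of all genes tested, 5.14% fell and 6.01% rose. At an unadjusted p under 0.05, 107 of the 178 were lower and 0 were higher, and DESeq2 and limma-voom also called 0 that rose. DESeq2 called 96 that fell, where of all genes it gave an adjusted p 8.85% fell and 9.14% rose, and limma-voom called 66, where 5.54% of all genes fell. In 105 of the 178 genes (59.0%) every P14 sample was below every P4 sample, against 18.9% of all genes tested. The median gene kept 9.03% of its P4 mean at P14, against 84.1% over the comparison genes. The count rested in part on single samples: it was 33 without P14 replicate 2 and 34 without P14 replicate 3. Named genes of the 178 had 42 called changes, leaving out Pbk, Ckap2 and genes named only for lying near a limit of the choice. A gene without a symbol was included. Of the 42, 19 held in all 17 alternatives to the test, scaling, filter, samples and block. The other 23 were lost in at least 1.

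**Figure D2:**
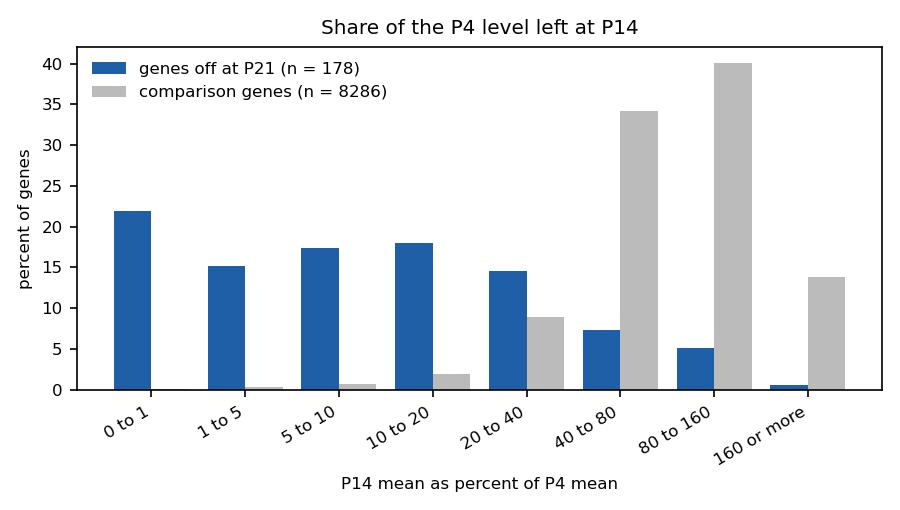
Percent of genes (vertical axis) by the P14 mean as a percent of the P4 mean (horizontal axis, unequal bins) for the 178 genes off at P21 and 8286 comparison genes with a count at P4. Of the former, 39 kept less than 1% of their P4 level, while the most filled bin of the comparison genes was 80 to 160%.

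In edgeR more genes were called from P8 to P14 than from P4 to P8, whereas limma-voom called 3 that fell in each step (0.584% of all genes from P4 to P8 and 1.04% from P8 to P14). From P8 to P14, 15 of the 178 genes fell and 0 rose, where 1.54% of all genes tested fell and 1.54% rose. That count was 8 without P14 replicate 1, 9 without any 1 P8 sample and 56 in DESeq2, where 3.99% of all genes fell and 3.49% rose. No gene of the 178 was higher at an unadjusted p under 0.05 and 81 were lower. From P4 to P8, 1 gene fell and 0 rose, where 0.403% of all genes tested fell and 1.12% rose. At an unadjusted p under 0.05, 25 were lower and 3 higher, among them Plekhg2 and Slc17a6, and DESeq2 called 10 that fell and 1 that rose, where it called 1.79% of all genes lower and 3.15% higher. Every P14 sample was below every P8 sample for 82 genes (46.1%, against 16.4% of all tested), and every P8 sample below every P4 sample for 50 (28.1%, against 8.64%). The difference between the steps was not tested.

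Genes of cell division formed the largest of the groups counted. Of 72 listed genes of the cell cycle and DNA replication, 28 were among the 178, 22 were comparison genes and 22 did not meet the conditions at P0. From P4 to P14, 22 of the 71 tested genes of that list fell and 0 rose, 11 of them among the 28. Of all genes tested, 5.14% fell and 6.01% rose. A further 23 of the 178 act in mitosis or replication and were added after their values had been seen (Pbk, Aspm, Knstrn and Ckap2 among them), and 7 of these fell. The 51 genes together had 2104, 1773 and 1960 CPM at P0, 990, 778 and 1240 at P4, 388, 328 and 372 at P8, and 38.3, 46.4 and 59.6 at P14. Their summed level at P14 was below that of every earlier sample by more than the spread between replicates.

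**Figure D3:**
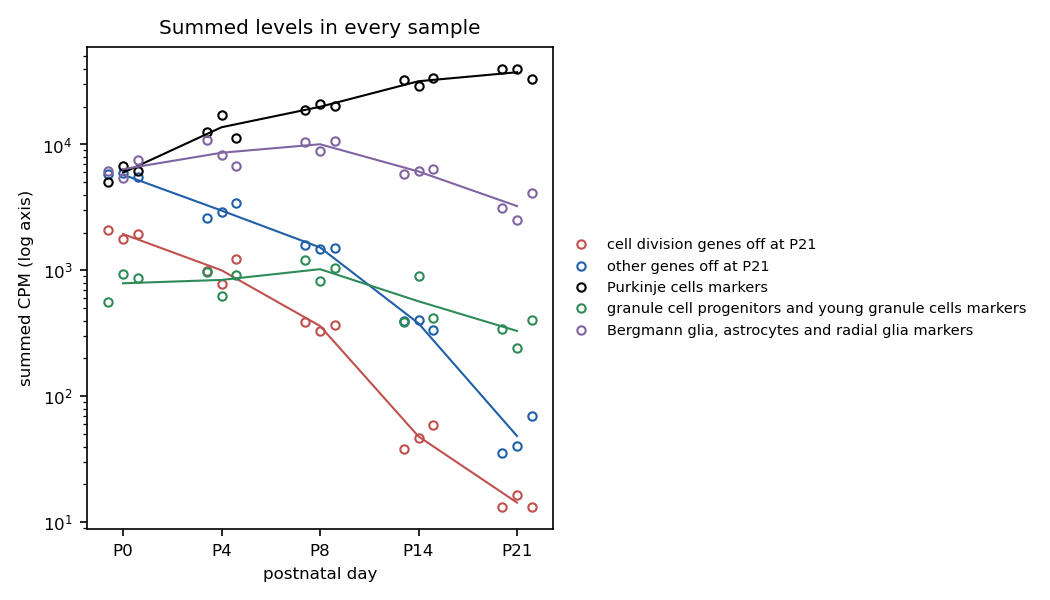
Summed CPM (log axis) in each of the 15 samples by postnatal day for the 51 cell division genes, the other 127 genes, and the marker lists of PCs, granule cell progenitors and young granule cells, and Bergmann glia, astrocytes and radial glia. Circles are samples and lines join the means. Both groups of genes off at P21 are lower at each age than at the one before, while the means of the PC markers are higher.

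Mki67, which encodes the Ki-67 protein of cycling cells, was at 149, 171 and 91.9 CPM at P0, 63.3, 34.7 and 84.2 at P4, 24.4, 15.7 and 20.8 at P8, and 0.337, 1.46 and 0 at P14. It fell from P4 to P14 by 6.45 on the log2 scale (SE 0.85, adjusted p = 0.000495 in edgeR) and from P8 to P14 by 4.90 (SE 0.82, adjusted p = 0.00886 in edgeR). All 3 P14 samples were below 2 CPM, so Mki67 was off 1 time point before P21. Top2a, the DNA topoisomerase of dividing cells, was at 134, 151 and 195 CPM at P0, 49.7, 52.3 and 141 at P4, 23.1, 19.9 and 17.2 at P8, and 0, 0 and 2.69 at P14. Its change from P4 to P14 was -6.29 (SE 1.08, adjusted p = 0.00265 in edgeR) and from P8 to P14 -4.31 (SE 1.02, adjusted p = 0.0445 in edgeR). The second call was lost without P4 replicate 3, any P8 sample, or P14 replicate 1 or 2 (adjusted p 0.0738 to 0.119 in edgeR), and in limma-voom (0.0806). The P4 samples were uneven, with replicate 3 well above the other two.

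Cenpf, a kinetochore protein, went from 27.6, 31.1 and 36.4 CPM at P4 and 15.7, 30.3 and 41.4 at P8 to no count in any P14 sample. Against a floor of 3 counts over the P14 samples, its P4 level was at least 179-fold higher. The P4 and P8 samples overlapped (log2 change -0.10, SE 0.53, adjusted p = 0.980 in edgeR), and the fall from P8 to P14 passed the test (adjusted p = 0.00119 in edgeR). Pbk, a mitotic kinase named outside the rule for named genes, was at 89.6, 30.1 and 87.1 CPM at P4, 8.49, 10.4 and 19.6 at P8, and had 1 count in all at P14. The pooled P4 to P14 ratio was 1043, with a counting interval of 186.9 to 41251, and its adjusted p was 6.24e-05 in edgeR. Psrc1, a spindle protein, Knstrn, a kinetochore protein, and Aspm, a spindle pole protein of neural progenitors, likewise had no count at P14, after 439, 485 and 540 counts at P4. Their P4 levels were at least 154-fold, 167-fold and 175-fold higher. Psrc1 and Knstrn also fell from P8 to P14 (adjusted p = 0.0256 and 0.0359 in edgeR), calls that were lost in limma-voom (0.115 and 0.143) and without any 1 P14 sample or P8 replicate 3 (0.0621 to 0.117), for Knstrn also without P4 replicate 3 (0.0605) or P8 replicate 1 (0.0544). The fall of Aspm from P4 to P14 (adjusted p = 0.0172 in edgeR) was lost without P14 replicate 1, 2 or 3 (0.0514, 0.0510 and 0.0586).

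Not every mitotic gene was tested as lower. Cdk1, the kinase that drives entry into mitosis, was at 65.2, 43.8 and 49.6 CPM at P4, 11.0, 24.6 and 24.9 at P8, and 0, 0.365 and 6.46 at P14, and fell by 4.36 from P4 to P14 (SE 1.10, adjusted p = 0.0247 in edgeR, and 0.0750 without P14 replicate 2). Ccnb1, its cyclin partner, was at 0.263, 13.2 and 31.2 CPM at P4 and 0.506, 0.182 and 5.75 at P14. Those samples overlapped, and the change of -2.61 (SE 1.57) did not pass the test (adjusted p = 0.335 in edgeR). Among the 51 cell division genes 26 were below 2 CPM from P14 on and 23 from P21 on, whereas among the other 127 genes 37 were off from P14 on and 84 from P21 on. The median cell division gene kept 4.03% of its P4 level at P14 and the median other gene 10.9%, and this difference was not tested.

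The cell division genes fell alongside changes in lists of other cells. The granule cell list ranged from 629.4 to 972.7 CPM at P4 and from 390.8 to 896 at P14, so that its samples overlapped. Neurod1, a factor of young granule cells, made up the largest part of that sum at each age. Of the 10 tested genes of the list 2 fell from P4 to P14 and 0 rose. Mycn, a target of the sonic hedgehog signal that drives progenitor division, had means of 104, 109, 64.8, 10.7 and 16.4 CPM from the first to the last age (log2 change from P4 to P14 -3.21, SE 0.37, adjusted p = 0.000186 in edgeR), and Pax6, a granule cell lineage factor, had means of 151, 128, 90.4 and 36.8 CPM from P0 to P14 (adjusted p = 0.0234 in edgeR). Gli1, another hedgehog target, had means of 8.99, 3.59, 9.89, 7.11 and 13.95 CPM and did not pass the test (adjusted p = 0.670 in edgeR). The list of Bergmann glia, astrocytes and radial glia was at 6703 to 10900 CPM at P4 and 5851 to 6350 at P14. Its samples did not overlap between these ages. The lower sum rested largely on Fabp7, at 5642, 5019 and 3476 CPM at P4 and 1192, 896 and 1010 at P14. Slc1a3 went from 2776, 1584 and 1638 CPM to 2913, 3495 and 3480. The sum is therefore no measure of glial content. Of the 13 tested genes of this list, 4 fell from P4 to P14 (Nes, Fabp7, Vim and Tnc) and 3 rose (Slc1a3, Gdf10 and Hopx). The part of dividing neighbours in the fall was not tested.

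**Figure D4:**
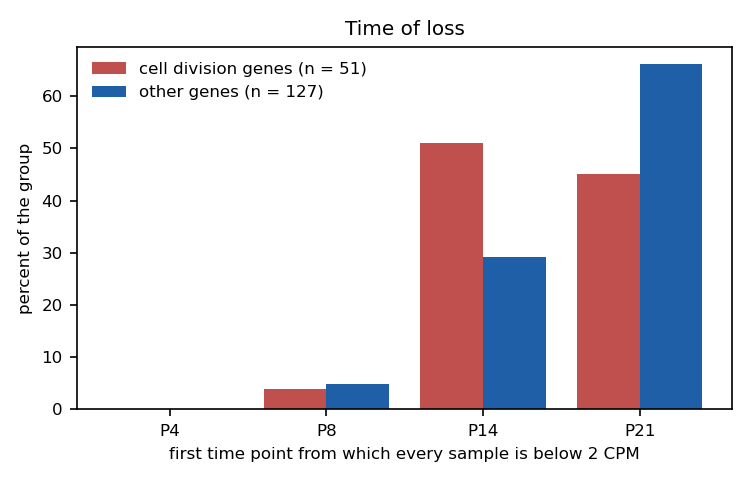
Percent of the 51 cell division genes and of the other 127 genes (vertical axis) by the first time point from which every sample was below 2 CPM (horizontal axis). P14 is the time point for 26 of the cell division genes and P21 for 84 of the others.

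Promoters of these genes are shown because many cell cycle genes are known to share a CCAAT box, bound by NF-Y, and a cell cycle homology region with the core TTTGAA, bound by DREAM and MuvB complexes. The 250 bases before the RefSeq transcription start of 3 of them (GRCm38.p6) were read 5′ to 3′ on the gene's strand. Capitals mark CCAAT and TTTGAA and their reverse complements ATTGG and TTCAAA.
Top2a, chr11:99024190-99024439, minus strand: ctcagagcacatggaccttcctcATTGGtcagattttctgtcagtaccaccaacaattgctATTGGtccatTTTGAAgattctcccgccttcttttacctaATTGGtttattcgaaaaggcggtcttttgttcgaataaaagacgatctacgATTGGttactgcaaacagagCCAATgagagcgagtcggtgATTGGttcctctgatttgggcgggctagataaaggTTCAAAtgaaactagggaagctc
Mki67, chr7:135716380-135716629, minus strand: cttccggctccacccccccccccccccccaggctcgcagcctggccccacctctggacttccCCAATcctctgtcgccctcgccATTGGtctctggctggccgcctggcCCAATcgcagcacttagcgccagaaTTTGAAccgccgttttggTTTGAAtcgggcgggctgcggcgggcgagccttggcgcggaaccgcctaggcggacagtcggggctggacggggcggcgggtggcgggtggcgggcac
Cdk1, chr10:69352913-69353162, minus strand: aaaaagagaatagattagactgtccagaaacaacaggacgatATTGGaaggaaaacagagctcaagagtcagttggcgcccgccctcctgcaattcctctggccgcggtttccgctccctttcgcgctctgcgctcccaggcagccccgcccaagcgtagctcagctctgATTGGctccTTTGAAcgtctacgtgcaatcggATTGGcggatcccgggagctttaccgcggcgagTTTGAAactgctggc
Of 46 RefSeq promoters of 41 cell division genes, 250 bases before to 50 after the start, 32 (69.6%) held CCAAT on either strand, 24 (52.2%) held TTTGAA and 19 (41.3%) held both, the 3 shown among them. Among all 32851 promoters of the table, 37.4% held CCAAT, 17.9% TTTGAA and 6.95% both. For the 6385 comparison genes with an entry the shares were 37.5, 10.9 and 4.22%. The letters TTTGGCGC, TTTCGCGC or TTTCCCGC, forms of the E2F site, were in 7 of the 46 (15.2%), in 1.84% of all promoters and in 3.33% of those of comparison genes. The median CpG count was 20.5 in the 46, 7 in all promoters and 22 in those of comparison genes. A match of letters is not a binding site. For all 178 genes together the check is void, because 117 of them had an entry in the table.

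The 3 genes with the highest P0 means, Dcx, Cd24a and Enc1, are known from young neurons. Dcx, which encodes the microtubule protein doublecortin of migrating and young neurons, was at 661, 860 and 699 CPM at P0, 386, 522 and 528 at P4, 284, 206 and 330 at P8, 31.2, 22.4 and 25.9 at P14, and 0.293, 0.360 and 0.857 at P21. No 2 of these ages overlapped, though P0 and P21 values chose the gene. The fall from P4 to P14 was 4.01 on the log2 scale (SE 0.26, adjusted p = 5.73e-06 in edgeR), an 18.1-fold difference of the means, and most of it came after P8 (log2 change from P8 to P14 -3.21, SE 0.25, adjusted p = 0.000244 in edgeR). The change from P4 to P8 was -0.80 (SE 0.23, adjusted p = 0.133 in edgeR).

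Enc1, an actin-binding protein of neural differentiation, was the gene among the 178 that fell between P4 and P8. It was at 494, 254 and 281 CPM at P0, 124, 142 and 164 at P4, 43.5, 46.4 and 51.6 at P8, and 16.4, 14.2 and 11.49 at P14. The fall from P4 to P8 was 1.59 (SE 0.26, adjusted p = 0.0111 in edgeR), and the fall from P8 to P14 was 1.60 (SE 0.27, adjusted p = 0.00890 in edgeR). The first call was lost without P8 replicate 1 (adjusted p = 0.0594) and the second without P14 replicate 3 (0.0519) and in limma-voom (0.0553). Cd24a, a surface glycoprotein of immature neurons, was at 423, 337 and 415 CPM at P0, 78.6, 103 and 194 at P4, and 18.4, 23.0 and 14.01 at P14, and fell by 2.59 from P4 to P14 (SE 0.37, adjusted p = 0.000886 in edgeR). Per length, Cd24a had the highest level of the 3 at P0, with an RPKM (CPM per kilobase of exon) of 152, against 72.4 for Enc1 and 58.5 for Dcx.

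**Figure D5:**
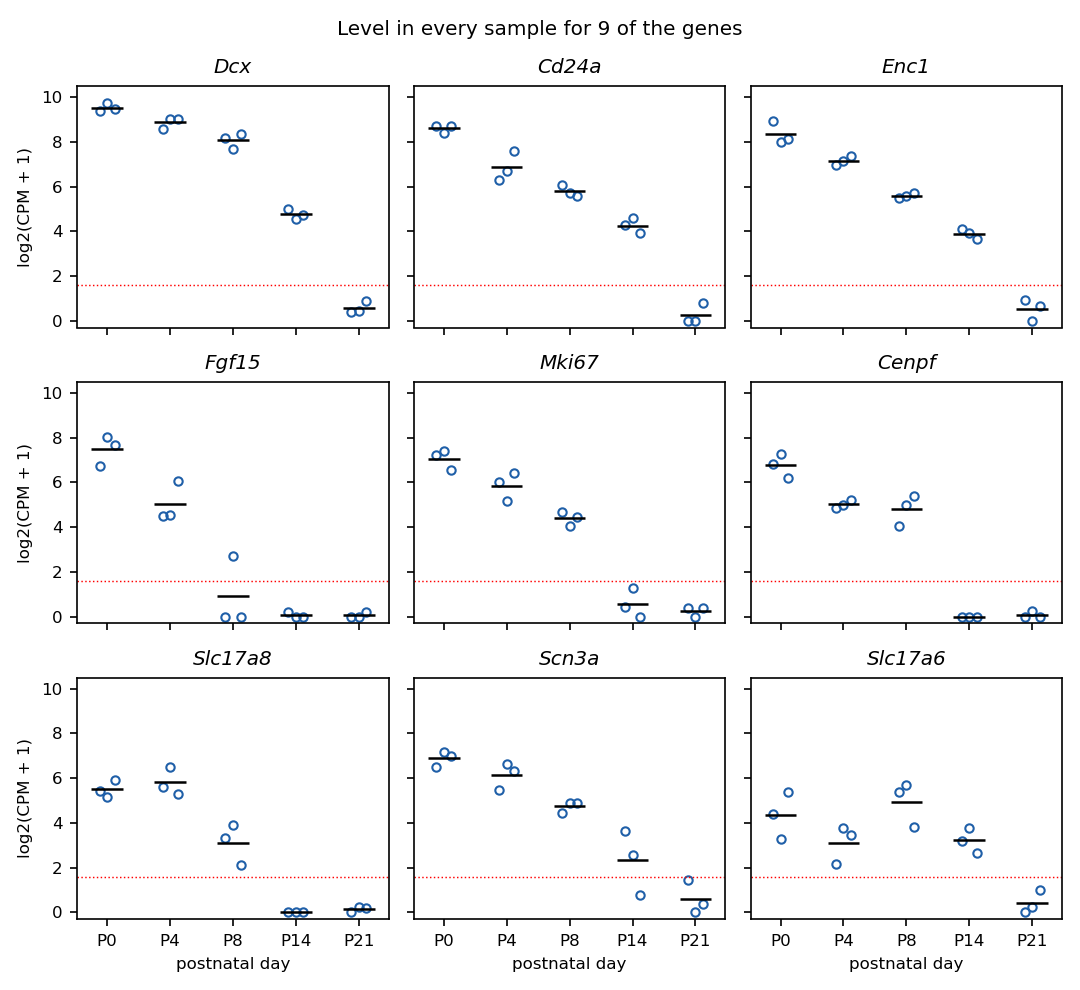
Level of 9 of the genes in every sample, as log2(CPM + 1) against postnatal day. Circles are the 3 samples of an age, bars their mean on this scale and the dotted line 2 CPM. Dcx, Cd24a and Enc1 stay above 2 CPM until P14, Fgf15, Mki67, Cenpf and Slc17a8 are below it at P14, and Slc17a6 is higher at P8 than at P4.

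Of 95 genes with a row in the list of axon guidance and migration, 5 were among the 178 (Dcx, Islr2, Epha10, Draxin and Cxcr4) and 48 were comparison genes. Over all genes, 178 were chosen and 8287 were comparison genes. From P4 to P14, 12 of the 88 tested genes of the list fell and 5 rose, where 5.14% of all genes tested fell and 6.01% rose. Islr2, a membrane protein of growing axons, was at 82.2, 73.2 and 74.3 CPM at P4, 24.2, 26.2 and 20.6 at P8, and 9.11, 2.92 and 9.34 at P14. Its samples did not overlap between these ages, and it fell by 3.25 from P4 to P14 (SE 0.47, adjusted p = 0.000880 in edgeR). Islr2 shares exons with Islr, another of the 178, so their reads are partly ambiguous. Epha10, a member of the Eph receptor family, fell from 58.6, 36.7 and 10.4 CPM at P4 to 0, 2.01 and 0.180 at P14 (log2 change -5.43, SE 1.18, adjusted p = 0.0107 in edgeR, and 0.0532 without P14 replicate 3). Draxin, a repulsive guidance protein, did not show a fall in this span: it was at 10.51, 0 and 17.6 CPM at P4 and 12.8, 3.29 and 12.4 at P14, and had no count at P21. Cxcr4, the receptor for the chemokine Cxcl12, was at 7.002, 21.5 and 8.98 CPM at P8 and 0.843, 1.46 and 2.33 at P14 (adjusted p = 0.176 in edgeR).

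Of the list of growth-cone and cytoskeleton genes, 2 (Dcx and Tuba1c) were among the 178 and 41 were comparison genes. Over all genes these numbers were 178 and 8287. From P4 to P14, 23 of the 46 tested genes of the list fell and 2 rose, where 5.14% of all genes tested fell and 6.01% rose. Tuba1c, an alpha-tubulin, was at 12.6, 21.2 and 19.1 CPM at P4 and 2.87, 3.47 and 1.26 at P14 (log2 change -2.64, SE 0.71, adjusted p = 0.0338 in edgeR). It passed the threshold in 9 of 17 alternatives, with adjusted p from 0.00156 to 0.121, and only uniquely mapped reads were counted for this gene with near-identical paralogs.

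Among secreted factors, a pair of fibroblast growth factor genes was lost. Of 92 genes with a row in the list of ligands and their modulators, Fgf15, Fgf3, Igfbpl1 and Sfrp2 were among the 178 and 27 were comparison genes. Over all genes, 178 were chosen and 8287 were comparison genes. From P4 to P14, 9 of 61 tested genes of the list fell and 6 rose, where 5.14% of all genes tested fell and 6.01% rose. Fgf15 was at 107, 264 and 204 CPM at P0, 21.6, 22.5 and 66.7 at P4, 0, 5.48 and 0 at P8, and 0.169, 0 and 0 at P14. Most of its P0 level was gone by P4, where 19.3% of the P0 mean was left. The change from P4 to P14 passed the test (adjusted p = 0.0130 in edgeR), though not without P4 replicate 3 or any 1 P14 sample (0.0503 to 0.0655). The P14 value rests on 1 count, with a pooled P4 to P14 ratio of 616 and a counting interval of 110 to 24372. Fgf3 was at 24.96, 39.0 and 94.8 CPM at P0, 9.20, 9.34 and 47.9 at P4, 0.212, 0 and 7.11 at P8, and at no count at P14, where its P4 level was at least 125-fold higher (adjusted p = 0.0292 in edgeR). That call was lost without the same samples (0.0771 to 0.0880).

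Both lie on the same stretch of chromosome 7 (GRCm38), Fgf3 at chr7:144838083-144844436 and Fgf15 at chr7:144896531-144900953, both on the plus strand. The antisense gene Gm26793 (chr7:144894560-144897461) overlaps the start of Fgf15 and was also among the 178, at 24.2, 6.01 and 47.5 CPM at P4 and no count at P14 (adjusted p = 0.00251 in edgeR). Its fall from P8 to P14 (adjusted p = 0.0350 in edgeR) was lost in limma-voom (0.250) and without P4 replicate 3 or any 1 P8 or P14 sample (0.0567 to 0.115). The library kit does not mark strand, so reads of Fgf15 and Gm26793 cannot be told apart where they overlap. Ano1, a calcium-activated chloride channel gene on the minus strand, lies 86108 bases away from Fgf3 and was another of the 178. Igfbpl1, an insulin-like growth factor binding protein relative, was at 2.89, 48.9 and 21.6 CPM at P4 and 2.53, 0.365 and 0 at P14 (adjusted p = 0.0473 in edgeR), past the threshold in 8 of 17 alternatives (adjusted p 0.000739 to 0.146). Sfrp2, a secreted Wnt modulator, had the lowest P0 mean of the 178, 10.1 CPM, and did not pass the test from P4 to P14 (adjusted p = 0.265 in edgeR).

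Transmitter transporters took unlike courses. Slc17a8, the vesicular glutamate transporter VGLUT3, was at 41.4, 34.5 and 60.1 CPM at P0, 48.4, 89.96 and 38.6 at P4, 9.12, 13.9 and 3.37 at P8, and at no count in any P14 sample. It had 1095 counts at P4 and was at least 334-fold higher there than at P14 (adjusted p = 0.000251 in edgeR). The samples of P4, P8 and P14 did not overlap, and the fall from P8 to P14 also passed the test (adjusted p = 0.00626 in edgeR, and 0.0797 in limma-voom). Slc17a6, the transporter VGLUT2, was at 20.3, 8.69 and 40.1 CPM at P0, 3.42, 12.5 and 9.85 at P4, 40.7, 50.1 and 12.9 at P8, 8.26, 12.8 and 5.39 at P14, and 0, 0.180 and 0.999 at P21. It was higher in every P8 sample than in every P4 sample, a difference that did not pass the test (log2 change 1.99, SE 0.70, adjusted p = 0.238 in edgeR). Slc17a6 is also a marker of excitatory cerebellar nuclei neurons, of whose other markers Lhx9 had no count at any age, and Tbr1 and Meis2 had none at P0 or P21. At P8, where Slc17a6 was highest, Tbr1 was at 0, 0.978 and 3.93 CPM and Meis2 at 4.88, 0 and 0. The part of such neurons in the level of Slc17a6 was not tested. Slc5a7, the choline transporter of cholinergic neurons, was below 2 CPM from P8 on, after 1.05, 23.3 and 0.371 CPM at P4. Over 384 solute carriers with a row, these 3 were among the 178 and 124 were comparison genes, where over all genes these numbers were 178 and 8287. Of 253 tested, 5 fell and 28 rose from P4 to P14, where 5.14% of all genes tested fell and 6.01% rose.

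Sodium channel subunits were among the genes that fell. Scn3a, the alpha subunit of the Nav1.3 channel, was at 89.8, 143 and 126 CPM at P0, 42.8, 97.5 and 78.4 at P4, 20.8, 28.4 and 28.6 at P8, and 11.47, 4.93 and 0.718 at P14, and fell by 3.51 from P4 to P14 (SE 0.74, adjusted p = 0.00915 in edgeR). Scn3b, an auxiliary beta subunit, was at 24.96, 37.4 and 72.3 CPM at P4 and 2.36, 9.12 and 1.98 at P14 (log2 change -3.16, SE 0.68, adjusted p = 0.00987 in edgeR). The P4, P8 and P14 samples of Scn3a did not overlap. Scn9a, the alpha subunit of Nav1.7, was off from P8 on, Gabra5, a GABA-A receptor subunit, was at 5.25, 22.9 and 6.13 CPM at P4 and at 0, 1.76 and 0 at P8, and Kcnq5, a potassium channel, was at 1.35, 6.57 and 0 at P14. None of these 3 passed the test from P4 to P14 (adjusted p = 0.112, 0.284 and 0.408 in edgeR). Over all 189 tested genes of ion channels and transmitter receptors, 12 fell and 34 rose in that span.

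RNA-binding proteins of embryonic tissue gave 2 of the 178, both insulin-like growth factor 2 mRNA-binding proteins. Igf2bp2 was at 43.7, 88.9 and 43.3 CPM at P0, 24.4, 12.3 and 18.9 at P4, 2.12, 16.6 and 0.187 at P8, and at no count at P14, where its P4 level was at least 105-fold higher (adjusted p = 0.0144 in edgeR, and 0.0505 without P14 replicate 3). Igf2bp1 had lost most of its level by P4: it was at 74.0, 65.7 and 29.7 CPM at P0 and at 0, 0.256 and 11.2 at P4, and its later change did not pass the test (adjusted p = 0.510 in edgeR). Mex3a, another RNA-binding protein, not on that list, was at 101, 80.4 and 79.0 CPM at P4 and 2.36, 17.3 and 4.31 at P14 (log2 change -3.29, SE 0.66, adjusted p = 0.00705 in edgeR). Over the list, 22 were comparison genes, and 4 of 29 tested genes fell and 2 rose. Over all genes, 178 were chosen and 8287 were comparison genes, and 5.14% of those tested fell and 6.01% rose. Peg12, the 1 imprinted gene of the 178 among 44 with a row, was even between samples, at 38.4, 36.3 and 38.1 CPM at P0 and 15.8, 11.8 and 9.10 at P4, and had no count at P14 or P21 (adjusted p = 0.0252 in edgeR for P14 against P4, and 0.0682 to 0.0764 without any 1 P14 sample).

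Of 86 matrix genes 6 were among the 178 and 19 were comparison genes, where over all genes these numbers were 178 and 8287. Mfap2, a microfibril protein, fell from 83.8, 71.9 and 102 CPM at P4 to 2.53, 6.93 and 0 at P14 (log2 change -4.60, SE 0.93, adjusted p = 0.00702 in edgeR). Gpc3, a glypican, fell from 19.4, 4.61 and 10.6 CPM to 0.337, 0 and 0, on 2 counts (pooled ratio 83.4, counting interval 22.7 to 694, adjusted p = 0.0188 in edgeR, and 0.0681 and 0.0756 without P14 replicate 2 or 3). The other 4 did not pass the test. Thbs2 (adjusted p = 0.247), Gpc2 (0.245) and Fbn1 (0.713) had lower means at P14 than at P4 in edgeR, and Col4a6 (0.915) was at 0, 0 and 8.36 CPM at P4 and 2.19, 0.182 and 8.44 at P14. Over the list 8 of 72 tested genes fell and 5 rose, where 5.14% of all genes tested fell and 6.01% rose. Of the cadherins, Dchs1 fell from 21.8, 34.3 and 55.9 CPM to 7.08, 1.64 and 6.28 (log2 change -2.72, SE 0.63, adjusted p = 0.0153 in edgeR, and 0.0547 without P4 replicate 3), and Pcdh8 did not pass the test (56.8, 13.4 and 25.4 CPM at P4, 7.08, 6.57 and 9.88 at P14, adjusted p = 0.0747 in edgeR).

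Of 186 listed developmental transcription factors 2 were among the 178, Myc and Tshz2, and 76 were comparison genes. Over all genes these numbers were 178 and 8287. From P4 to P14, 20 of the 122 tested factors fell and 5 rose, where 5.14% of all genes tested fell and 6.01% rose. Myc was at 6.40, 16.3 and 11.3 CPM at P0, 12.1, 2.05 and 11.0 at P4, 25.5, 21.7 and 0.561 at P8, and 4.89, 7.85 and 0 at P14, with overlapping samples throughout. Neither passed the test in that span (adjusted p = 0.805 for Myc and 0.277 for Tshz2 in edgeR).

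Some genes were not highest at P0. The P4 mean was above the P0 mean for 19 of the 178 and the P8 mean for 6. Psrc1 was at 8.75, 16.7 and 19.7 CPM at P0 and 30.5, 19.7 and 31.4 at P4. Adgrg6, an adhesion G protein-coupled receptor, was at 27.3, 34.3 and 13.6 CPM at P0, 48.1, 54.4 and 15.8 at P4, 10.2, 2.35 and 18.1 at P8, and 2.02, 1.46 and 1.62 at P14, and fell from P4 to P14 by 4.37 (SE 0.85, adjusted p = 0.00566 in edgeR, and 0.0511 in limma-voom). Fam81a (adjusted p = 0.113) and AU021092 (adjusted p = 0.179), with P4 means of 49.7 and 22.0 CPM after 22.2 and 14.4 at P0, did not pass that test in edgeR.

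Among the genes still highest at P14 were Dcx, Cd24a, Enc1, 2700081O15Rik and D430019H16Rik, each above 2 CPM in all 3 samples there. 2700081O15Rik went from 18.1, 32.0 and 26.4 CPM at P4 and 34.4, 32.9 and 17.0 at P8 to 10.1, 16.2 and 8.80 at P14 and 0, 0 and 1.86 at P21, and did not pass the test before P14 (adjusted p = 0.248 in edgeR). D430019H16Rik did, from 100, 88.4 and 110 CPM at P4 to 14.7, 17.0 and 3.23 at P14 (log2 change -2.93, SE 0.51, adjusted p = 0.00283 in edgeR). Fam19a2, a secreted chemokine-like protein of neurons, was at 175, 86.2 and 101 CPM at P0, 2.89, 33.5 and 3.16 at P4, and 17.8, 14.3 and 5.80 at P8, and had 1 count at P14. Its fall passed the test from P4 to P14 (adjusted p = 0.0103 in edgeR, and 0.0535 without P14 replicate 3) and from P8 to P14 (0.0329, and 0.0529 to 0.149 without any 1 P8 or P14 sample and 0.0716 in limma-voom).

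Markers of other cells were among the 178 in 4 cases. Kirrel2, listed for interneuron progenitors, was at 41.0, 8.06 and 38.1 CPM at P4, 9.97, 10.8 and 0 at P8, and 0.169, 0 and 0 at P14, and fell from P4 to P14 (adjusted p = 0.0106 in edgeR, and 0.0565 without P14 replicate 3). Pax2 of the same list was at 14.2, 22.5 and 6.32 CPM at P4 and 5.73, 7.12 and 0.180 at P14, and the summed list of 5 genes was 37.6 to 80.6 CPM at P4 and 5.90 to 9.16 at P14. Pecam1, an endothelial adhesion molecule, was at 74.0, 12.5 and 29.0 CPM at P0 and 4.20, 5.502 and 0.743 at P4, while the 8 endothelial markers together went from 82.5 to 155 CPM at P0 to 35.4 to 79.1 at P4 and 22.1 to 34.9 at P21. Ttr, the choroid plexus marker transthyretin, was at 6.61, 35.7 and 26.5 CPM at P0 and at no count in any P8 sample. The 7 choroid plexus markers together were at 38.8 to 59.7 CPM at P0, 1.91 to 5.80 at P8 and 40.5 to 98.6 at P21, where Clic6 made up most of the sum, with a mean of 69.1 CPM after 0.0743 at P0. Each of these sums includes the marker among the 178, Kirrel2, Pecam1 or Ttr, which was itself chosen for high P0 and low P21 values. The sums are therefore not separate from the chosen genes. The part of captured neighbouring cells in these values was not tested, and the fourth case was Slc17a6.

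Near the limits of the choice, the 3 genes with the highest P21 sample inside were Pimreg, Plekhg2 and Ncapg, at 1.998, 1.998 and 1.98 CPM, and the 3 outside were Zfp959, 3110009E18Rik and Ooep, each at 2.05. At the P0 mean of 10 CPM, Sfrp2, Gm11615 and a gene without a symbol lay inside at 10.1, 10.2 and 10.2 CPM, and Rimkla, Kif26a and Gm6104 outside at 9.81, 9.76 and 9.21. At the limit of 5 CPM for the lowest P0 sample, Cxcr4, 3000002C10Rik and Gm11615 lay inside at 5.12, 5.12 and 5.33, and Mpst, Neurl1b and C2cd4c outside at 4.99, 4.76 and 4.76.

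By annotation (GENCODE M21), 176 of the 178 genes had an entry. Of these 162 (92.0%) were protein-coding, 7 were pseudogenes and 7 other noncoding RNAs, among them Miat, a long noncoding RNA of the nervous system. The protein-coding share was 95.7% among comparison genes and 90.7% among all genes tested. On chromosome 7 lay 19 of the 176 (10.8%, against 7.45% of all tested) and on the X chromosome 5 (2.84%, against 3.74%). An exon was shared with another gene in 47 (26.7%, against 29.2%), and the median exon length was 4274 bases, against 4339. Besides the genes around Fgf15, close pairs were Cenph and Ccnb1, 2750 bases apart on chromosome 13, and Pbk and Esco2, 1215 bases apart on chromosome 14, all of them genes of cell division.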

How the data were processed

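Counts per gene were deposited by the authors for each of the 15 samples: per the paper's methods and the submitters' processing notes, reads of SMARTer libraries were trimmed with cutadapt 1.2.1, aligned to GRCm38/mm10 with GSNAP, kept where uniquely mapped and counted with HTSeq 0.5.3p9 in intersection-strict mode. Which annotation release was used for counting is not given in the sources used here. Rows that name no gene were left out of totals; reads in no feature were 16.7 to 29.8% of all rows' sum per sample. CPM used the sum over genes, and RPKM the GENCODE M21 exon length. The 178 genes and all lists were chosen with earlier results of these data known. edgeR 4.0.16 (R 4.3.3) fitted time point as a factor on P4, P8 and P14 (9 samples, TMM) for 14392 genes with a mean of at least 1 CPM over the 15 samples, so that each of the 178 was tested through its P0 level. Benjamini-Hochberg adjustment ran over all tested genes, with a threshold of 0.05. The sum of the 3 replicates' counts and exact conditional binomial intervals gave pooled ratios, and floors took 3 counts over the 3 samples; both cover counting error only. Named genes were the 12 highest at P0, the 6 highest at P14 or in the ratio of P4 to P0, those with the largest called changes (6 for P14 against P4, 3 for the other steps), up to 5 per list and the 3 on each side of each limit; genes outside that rule were named after their values were seen. Genes with no symbol were counted only. Some genes that the counts include are not reported here by name. The fits were tested on simulated counts with known changes, where DESeq2 made more false calls than edgeR or limma-voom, so its larger counts are given as alternatives only. Alternatives were DESeq2 1.42.0, limma-voom (limma 3.58.1), other scalings and filters, all 15 samples, a replicate block and each sample left out.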

Additional observations from a re-analysis of the deposited data

How the results depend on the processing

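From P4 to P14 the 8 alternatives to the test, scaling, filter, samples and block, and the 9 fits with 1 sample left out, gave 0 genes that rose. The 53 that fell were 96 with DESeq2 (which called 8.85% of all genes lower) and 33 to 57 with 1 sample left out; all 53 were among the 96. P4 to P8 gave 1 gene that fell, 10 with DESeq2, 3 with limma-voom and 0 to 2 with 1 sample left out, and DESeq2 called 1 that rose. P8 to P14 gave 15, 56 with DESeq2 (3.99% of all genes), 3 with limma-voom and 8 to 19 with 1 sample left out. Any change over the 3 ages was called for 37 genes by edgeR (8.64% of all genes) and 76 by DESeq2's likelihood ratio test (15% of all). A replicate block gave 45, 1 and 9 genes that fell (P4 to P14, P4 to P8, P8 to P14); numbers did not pair the samples (mean r = -0.0134, 0 of 9 samples correlated best with their own number). Scaling by total counts moved the median of all genes from -0.075 to -0.24 for P14 against P4, and the split of all genes from 740 lower and 865 higher to 1033 and 721; for P14 against P8 it went from 221 and 221 to 354 and 161. The causes were not tested.

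The number of genes chosen was 178, and 146 with TMM library sizes, all of them among the 178. It was 119 with a P21 limit of 1 CPM, 410 with 5 CPM, and 117 with a P0 mean of 20 CPM. With 1 P0 or P21 sample left out it was 228 to 287 (287 without P21 replicate 3). With a limit of 5 CPM, 2 genes were off from P4, 28 from P8 and 54 from P21; with 1 CPM, 2 from P8 and 40 from P14. The level left at P14 was 5.30% of P0 with TMM scaling. Uncalled changes from P4 to P14 changed sign in 5 named genes: Slc17a6 without P4 replicate 1 (-0.21) or P14 replicate 2 (-0.18), Draxin without P4 replicate 2 (-0.35) or P14 replicate 1 (-0.053), Igf2bp1 without P4 replicate 3 (1.68), Col4a6 without P4 replicate 2 (-0.0018) or P14 replicate 3 (-0.98) and Slc5a7 without P4 replicate 2 (0.50). Over all fits with 1 sample left out, the changes ranged from -0.21 to 0.60 for Slc17a6, -0.35 to 1.07 for Draxin, -4.07 to 1.68 for Igf2bp1, -0.98 to 7.41 for Col4a6 and -4.36 to 0.50 for Slc5a7. Of the 42 called changes of named genes, 23 were lost in at least 1 alternative; the block ended those of Peg12 (adjusted p = 0.0512), Igfbpl1 (0.143) and Tuba1c (0.0703) from P4 to P14 and of Psrc1 (0.0715), Knstrn (0.0824) and Gm26793 (0.0840) from P8 to P14 in edgeR. Genes near 3 counts per sample, 0.384 to 0.880 CPM, could show no further fall at this depth.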
